A study of Homo sapiens with 12 samples.

Results

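The level of 9 keratin genes was followed in 3 head and neck squamous cell carcinoma (HNSCC) cell lines that received cetuximab or PBS. The genes were taken by name from the 33514 gene symbols of the count matrices. They are KRT7, KRT8, KRT18 and KRT19, the keratins of simple (single-layered) epithelium, and KRT1, KRT4, KRT10, KRT13 and KRT80, the keratins of the upper layers of stratified epithelium. All 9 had UMIs in the matrices, and all 9 passed the filter on low counts that left 17897 genes for testing, KRT1 and KRT4 at very low levels. A UMI (unique molecular identifier) is a tag that marks a captured mRNA molecule, so a UMI count is a count of molecules.

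Keratins are the intermediate filament proteins of epithelial cells. A type I keratin (KRT10, KRT13, KRT18, KRT19) must pair with a type II keratin (KRT1, KRT4, KRT7, KRT8, KRT80) to build a filament, and the usual partners are made together. KRT8 with KRT18 is the pair of simple epithelia, with KRT7 and KRT19 added in ducts and glands. In a stratified epithelium the basal layer holds KRT5 with KRT14, and cells that leave it switch to other pairs, KRT1 with KRT10 where the surface cornifies, as in skin, and KRT4 with KRT13 where it does not, as in the lining of the mouth and oesophagus. Squamous carcinomas often hold simple and stratified keratins side by side, and pathologists use KRT7, KRT8, KRT18 and KRT19 in typing carcinomas.

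SCC1, SCC6 and SCC25 are established HNSCC lines, each grown with 10% serum and each treated daily for 5 days with 100 nM cetuximab, an antibody that blocks the EGF receptor, or with PBS as the untreated control. There were 6 groups of 2 samples, 12 samples in all, each a 10x Genomics 3′ single-cell RNA-seq library. Each line is a single cell population kept in culture, so 3 lines stand for 3 tumours. Whether the 2 samples of a group came from separate cultures is not given in the sources used here, and p-values measure the spread between these samples, which may be technical.

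The matrices held 23914 cells, 961 to 2854 per sample, with 57057402 to 112170073 UMIs per sample and a median of 24078.5 to 54864 UMIs per cell. Libraries shared 1 to 13 cell barcodes between groups. Levels are given in CPM, UMI counts scaled to a common library total with a TMM correction, and since 3′ counting gives a UMI per molecule, CPM is not divided by transcript length. The lines were checked against markers of a squamous epithelial line. EPCAM, CDH1, DSP, SFN and TP63 were present in every sample, but KRT5 and KRT14 were nearly absent from SCC6, at 1.16 to 4.47 CPM and 0.42 to 2.52 CPM, against 324 to 2281 CPM and 1155 to 4675 CPM in the other lines. Blood markers (PTPRC, CD3E, HBB) summed to at most 0.2 CPM and the liver marker ALB was at 0.02 CPM or less. The summed level of 6 fibroblast markers was higher after cetuximab in SCC6, at 1.1 and 3.1 CPM untreated and 24.5 and 21.0 CPM treated, most of it COL1A1, with THY1 at 0.01 CPM or less. In SCC1 the sum was 7.2 to 7.5 CPM untreated and 15.3 to 16.6 CPM treated, and in SCC25 19.6 to 40.5 and 39.8 to 76.8 CPM. The part of these transcripts in the results was not tested.

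The genes lie in the keratin clusters of chromosomes 12 and 17 (positions from RefSeq, GRCh38.p14). On chromosome 12 are KRT80 (chr12:52168996-52192014), KRT7 (chr12:52233243-52255853), KRT1 (chr12:52674736-52680407), KRT4 (chr12:52806549-52814116), KRT8 (chr12:52897191-52949860) and KRT18 (chr12:52948855-52952906), the type I gene that sits in the type II cluster. On chromosome 17 are KRT10 (chr17:40818117-40822614), KRT13 (chr17:41500981-41505612) and KRT19 (chr17:41523617-41528308). The listed spans of KRT8 and KRT18 overlap by 1006 bases, and RefSeq lists 52 pseudogenes named for KRT8, 68 for KRT18 and 5 for KRT19, none of which has a row in the matrices. How the counting shared reads among these copies is not given in the sources used here, so the levels of KRT8, KRT18 and KRT19 carry that uncertainty. An antisense gene of KRT7, KRT7-AS, was counted apart at 0.17 to 2.41 CPM, and TMEM99, which overlaps KRT10, at 21.3 to 47.7 CPM.

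The bases just before the start of 2 suprabasal genes are shown because these genes were at opposite ends of the set. KRT4 differed most between samples and KRT10 least among the suprabasal members. Each line gives the 250 bases before the RefSeq start on the minus strand of GRCh38.p14, 5′ to 3′, for KRT4 at chr12:52814117-52814366 and for KRT10 at chr17:40822615-40822864, with matches to TATAA in capitals.
KRT4: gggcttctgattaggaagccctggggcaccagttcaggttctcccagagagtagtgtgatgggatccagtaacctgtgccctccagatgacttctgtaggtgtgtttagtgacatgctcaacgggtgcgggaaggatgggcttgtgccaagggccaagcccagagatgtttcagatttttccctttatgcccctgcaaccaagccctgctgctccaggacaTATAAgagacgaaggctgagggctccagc
KRT10: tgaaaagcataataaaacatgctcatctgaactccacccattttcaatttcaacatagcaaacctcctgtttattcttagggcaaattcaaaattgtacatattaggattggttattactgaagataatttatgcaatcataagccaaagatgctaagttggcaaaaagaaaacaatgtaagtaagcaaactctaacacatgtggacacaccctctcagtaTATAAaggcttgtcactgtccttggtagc
In both genes the match begins 29 bases before the start. On either strand, 18.9% of 35116 promoter windows of this length hold TATAA. Neither window holds the AP-1 motif TGANTCA, found in 6.57% of windows, or the GC box GGGCGG, found in 42.6%. These are matches of letters and no measure of binding. The 2 windows differ in base composition, with 54.8% G and C for KRT4 and 34.8% for KRT10. The table held no window for KRT7, KRT18, KRT19, KRT1, KRT13 or KRT80, and its KRT8 window lies inside the listed KRT8 span and is not shown.

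The simple keratins were among the main keratins of all 3 lines, and the suprabasal keratins were minor. KRT7, KRT8, KRT18 and KRT19 together made up 53.6% to 60.1% of keratin UMIs in SCC1, 48.5% to 62.9% in SCC6 and 34.4% to 37.2% in SCC25. The suprabasal members together made up 2.1% to 5.7% in the 12 samples. The lines differed in what stood beside the simple keratins. In SCC25 the basal keratins KRT5, KRT14 and KRT15 took 24.0% to 37.1%, in SCC1 11.96% to 13.05%, and in SCC6 at most 0.145%. The keratins of activated keratinocytes, KRT6A, KRT6B, KRT6C, KRT16 and KRT17, took 21.8% to 30.5% in SCC1 and 23.1% to 36.1% in SCC25, and in SCC6 5.16% and 3.04% untreated and 14.1% and 12.8% treated. In SCC6 the hair keratins KRT81 and KRT86 took 26.4% to 36.3%, against at most 1.22% in SCC1 and SCC25. The stacked bars of the keratin make-up show these blocks sample by sample.

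**Figure D1:**
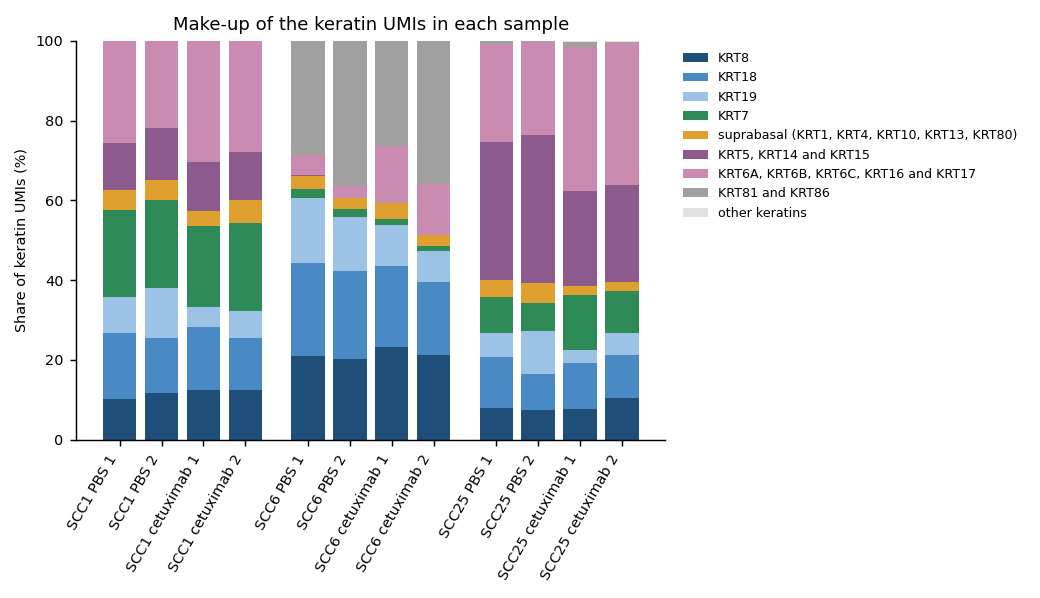
Share of all keratin UMIs (y axis, percent) in each of the 12 samples (x axis), 1 bar per sample, split by gene or gene group. KRT8, KRT18 and KRT19 are the largest block in SCC6 (47.4% to 60.5%), KRT7 adds 20.3% to 22.1% in SCC1, and the suprabasal members stay between 2.1% and 5.7%.

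KRT7 separated all 3 untreated lines, and KRT8 and KRT18 set SCC6 apart from the others. KRT7, the type II keratin of ducts and glands, was at 2819 and 3415 CPM in untreated SCC1, 964 and 1383 CPM in SCC25, and 452 and 326 CPM in SCC6. The 3 lines did not overlap, in the order SCC1, SCC25, SCC6. KRT7 was lower in SCC6 than in SCC1 by a log2 difference of -3.00 ± 0.26 (SE; edgeR adjusted p = 1.5e-05), lower in SCC25 than in SCC1 by a difference of -1.41 ± 0.24 (edgeR adjusted p = 0.00126), and higher in SCC25 than in SCC6 by 1.59 ± 0.24 (edgeR adjusted p = 0.000635).

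KRT8 and KRT18, partners in the filaments of simple epithelium, ran in another order, with SCC6 highest. KRT8 was at 3925 and 3517 CPM in untreated SCC6, 1316 and 1809 CPM in SCC1, and 842 and 1443 CPM in SCC25. KRT18 was at 4337 and 3786 CPM in SCC6, 2150 and 2163 CPM in SCC1, and 1359 and 1725 CPM in SCC25. SCC6 did not overlap with the other lines for either gene. Against SCC1, SCC6 was higher by 1.25 ± 0.38 on the log2 scale for KRT8 (edgeR adjusted p = 0.0230) and by 0.91 ± 0.25 for KRT18 (edgeR adjusted p = 0.0141). Against SCC6, SCC25 was lower, with log2 differences of -1.70 ± 0.38 for KRT8 (edgeR adjusted p = 0.00542) and -1.40 ± 0.25 for KRT18 (edgeR adjusted p = 0.00159). SCC25 and SCC1 were not called different, with -0.45 ± 0.37 for KRT8 (edgeR adjusted p = 0.362) and -0.48 ± 0.25 for KRT18 (edgeR adjusted p = 0.143). The calls between SCC6 and SCC1 rested on few samples. That of KRT8 was lost without any 1 of the 4 samples, SCC1 PBS replicate 1 or 2 or SCC6 PBS replicate 1 or 2 (edgeR adjusted p = 0.0504 to 0.146), and that of KRT18 without SCC1 PBS replicate 1 or 2 or SCC6 PBS replicate 1 (edgeR adjusted p = 0.0722 to 0.0758).

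KRT19, the small type I keratin that lacks most of the tail found in other keratins, was not called between the untreated lines in the 6-group fit. It was at 3010 and 2377 CPM in SCC6, 1169 and 1934 CPM in SCC1, and 642 and 2111 CPM in SCC25. Both SCC6 samples lay above the untreated samples of the other lines, and the SCC25 samples lay 3.29-fold apart and spanned both SCC1 values. The log2 differences were 0.80 ± 0.56 for SCC6 against SCC1, -0.17 ± 0.56 for SCC25 against SCC1 and -0.97 ± 0.56 for SCC25 against SCC6, with edgeR adjusted p-values of 0.291, 0.833 and 0.199. The last was called with a replicate block shared by the lines (-1.20 ± 0.43, edgeR adjusted p = 0.0357) and with no filter on low counts (edgeR adjusted p = 0.0434).

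Among the suprabasal keratins, KRT10 was at a similar level in the lines, KRT13 and KRT80 ran in opposite orders, and KRT4 was measurable mainly in SCC25. KRT10, the type I partner of KRT1, was at 257 and 252 CPM in untreated SCC1, 306 and 258 CPM in SCC25, and 397 and 348 CPM in SCC6. It was higher in SCC6 than in SCC1 by 0.55 ± 0.20 on the log2 scale (edgeR adjusted p = 0.0495), at the edge of the threshold, and the call was lost without any 1 of the 12 samples (edgeR adjusted p = 0.0526 to 0.187). SCC25 differed from SCC1 by 0.15 ± 0.20 and from SCC6 by -0.40 ± 0.20, with edgeR adjusted p-values of 0.587 and 0.134.

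KRT13, the type I keratin of the mouth lining, was at 365 and 517 CPM in untreated SCC1, 105 and 662 CPM in SCC25, and 22.7 and 14.7 CPM in SCC6. SCC6 was below both other lines. The log2 difference was -4.56 ± 1.20 for SCC6 against SCC1 (edgeR adjusted p = 0.0120) and 4.36 ± 1.18 for SCC25 against SCC6 (edgeR adjusted p = 0.0141). The latter was 2.49 without SCC25 PBS replicate 2, the high sample (edgeR adjusted p = 0.105), and both calls were lost without SCC6 PBS replicate 1 or 2 (edgeR adjusted p = 0.0657 to 0.0909). SCC25 spanned SCC1, with a log2 difference of -0.20 ± 1.03 (edgeR adjusted p = 0.896).

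KRT80, a type II keratin found near desmosomes of many epithelia, was at 176 and 118 CPM in untreated SCC6, 37.8 and 20.9 CPM in SCC25, and 13.2 and 10.7 CPM in SCC1. The 3 lines did not overlap, in the reverse of the order for KRT7. SCC6 was higher than SCC1 by 3.62 ± 0.32 on the log2 scale (edgeR adjusted p = 1.61e-05) and SCC25 higher than SCC1 by 1.30 ± 0.29 (edgeR adjusted p = 0.00540, and 0.0535 without SCC1 PBS replicate 2). SCC25 was lower than SCC6, with a log2 difference of -2.33 ± 0.30 (edgeR adjusted p = 0.000217).

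KRT4, the partner of KRT13, had 106 and 3085 UMIs in untreated SCC25 (1.32 and 29.98 CPM), 32 and 32 UMIs in SCC1 (0.45 and 0.34 CPM), and 3 and 2 UMIs in SCC6. Of the 3191 SCC25 UMIs, 3085 came from replicate 2. KRT4 was called higher in SCC25 than in SCC1 (edgeR adjusted p = 0.0286) and than in SCC6 (edgeR adjusted p = 0.00818). Against SCC1, the fitted log2 difference of 5.33 ± 1.69 was 1.75 without SCC25 PBS replicate 2 (edgeR adjusted p = 0.390), and the call was also lost without SCC1 PBS replicate 1 or 2 (edgeR adjusted p = 0.121 and 0.141). Against SCC6 it was lost without SCC6 PBS replicate 1 or 2 (edgeR adjusted p = 0.0633 and 0.0619).

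KRT1, the keratin of cornifying skin, was close to absent. The untreated samples of SCC1 had 3 and 51 KRT1 UMIs, those of SCC25 had 7 and 59, and those of SCC6 had 0 and 1. Its call depended on the fit. For SCC6 against SCC1 and SCC25 against SCC6 the edgeR adjusted p was 0.0611 and 0.0515 in the 6-group fit, 0.00375 and 0.00247 with no filter on low counts, and 0.0513 and 0.0401 with a block shared by the lines, and DESeq2 gave 0.0202 and 0.0148. No fold is given. Its UMIs sat in few cells. In cetuximab-treated SCC1 replicate 1, which had 56 KRT1 UMIs, 1 of 938 cells held 30 of them after each cell was thinned to 15000 UMIs.

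**Figure D2:**
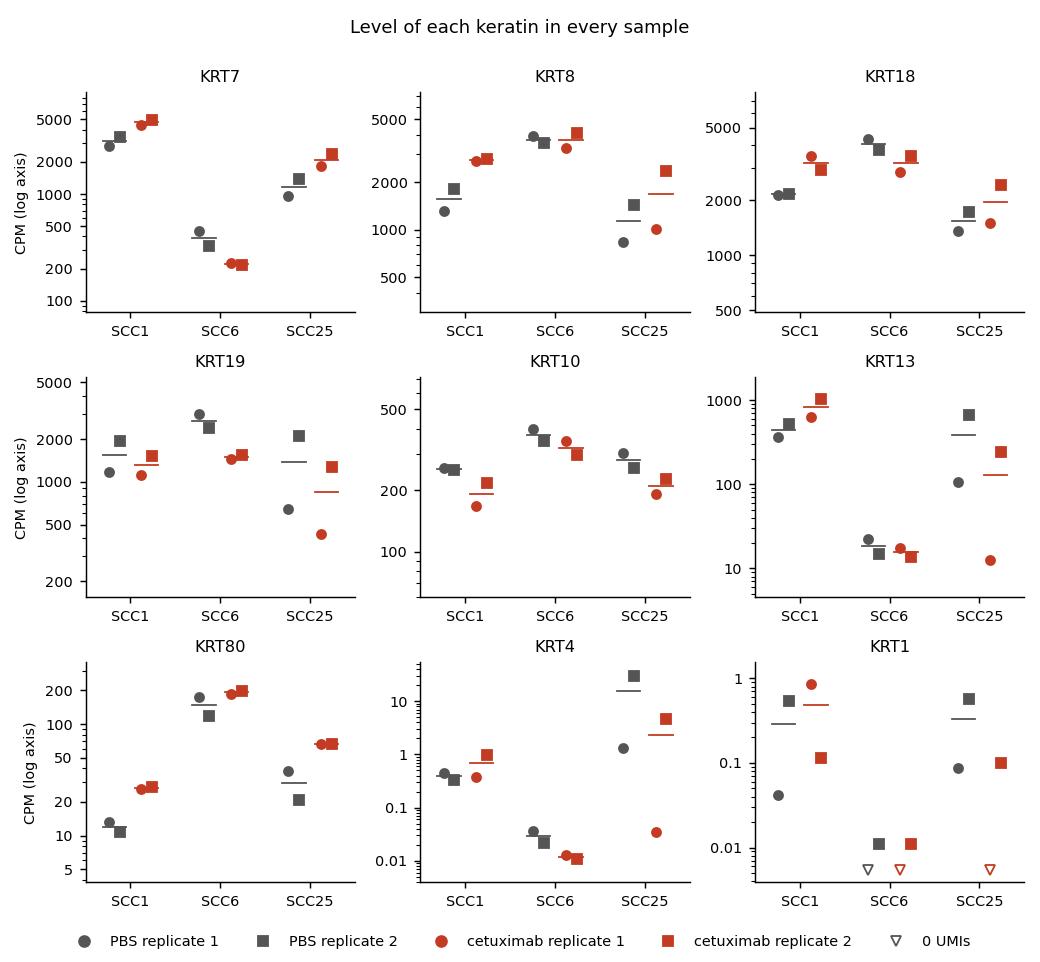
Level of each keratin (y axis, CPM, log axis, a separate scale for each gene) in the 12 samples by line (x axis). Circles are replicate 1, squares replicate 2, grey PBS, red cetuximab, short lines the mean of 2 samples where both have UMIs, and open triangles samples with 0 UMIs drawn at the foot of the axis; in untreated samples KRT7 is lower and KRT80 higher in the order SCC1, SCC25, SCC6, and SCC25 replicates lie far apart for KRT13, KRT19 and KRT4.

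Of the 9 members, 6 were called between SCC6 and SCC1 (4 higher and 2 lower in SCC6), 3 between SCC25 and SCC1 (2 higher and 1 lower in SCC25) and 6 between SCC25 and SCC6 (3 in each direction). Over all genes tested the shares called were 40.2%, 40.8% and 40.9%, so the count of 3 is near the background and those of 6 above it, without a test. The count for SCC6 against SCC1 was not stable, at 2 to 6 when single samples were left out, with 2 without SCC6 PBS replicate 1 and 3 without SCC1 PBS replicate 2 or SCC6 PBS replicate 2. By direction, the shares over all genes were 21.5% higher and 18.6% lower for SCC6 against SCC1, 23.4% and 17.3% for SCC25 against SCC1, and 22.2% and 18.7% for SCC25 against SCC6. For SCC25 against SCC6, the calls of KRT4 and KRT13 were both lost without SCC6 PBS replicate 1 or 2, as given above. The 3 comparisons share samples. The median log2 difference of the members was 0.55, -0.17 and -0.40 in the same order, against 0.00 to 0.04 over all genes. Among the other keratins listed, 9, 14 and 15 of 19 tested were called in the same comparisons. Of the 15 called between SCC25 and SCC6, 13 were higher in SCC25. The largest log2 differences were those of KRT14 (12.39 ± 0.63), KRT5 (10.20 ± 0.67), KRT75 (8.53 ± 0.74) and KRT31 (8.04 ± 0.73). The 2 lower in SCC25 were the hair keratins KRT81 (-6.51 ± 0.48) and KRT86 (-2.23 ± 0.22). Of the 14 genes that anchor or organise keratin filaments, 4, 5 and 5 were called. PKP1, a plakophilin of squamous desmosomes, was lower in SCC6 than in SCC1 (log2 difference -7.11 ± 0.35), and PKP2, a plakophilin of simple epithelia and heart, was higher (1.56 ± 0.28). Of 14 tested genes of simple and glandular epithelium, 6 were called between SCC6 and SCC1, each higher in SCC6, the claudins CLDN3 (4.56 ± 0.61) and CLDN4 (2.45 ± 0.62) among them. Of 19 tested genes of suprabasal squamous differentiation, 4 were higher and 3 lower, with ZNF750, a regulator of epidermal differentiation, at -6.56 ± 0.98 and CNFN, a cornified envelope gene, at 2.88 ± 0.35.

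In SCC1, cetuximab-treated samples had more KRT7, KRT8, KRT18 and KRT80 than untreated samples. KRT7 went from 2819 and 3415 CPM to 4477 and 4971 CPM. KRT8 went from 1316 and 1809 CPM to 2725 and 2810 CPM. KRT18 went from 2150 and 2163 CPM to 3516 and 2929 CPM. For these genes both treated samples lay above both untreated ones. KRT80 went from 13.2 and 10.7 CPM to 26.4 and 27.2 CPM, also without overlap, and KRT13 from 365 and 517 CPM to 627 and 1032 CPM, with both treated samples higher. KRT10 went the other way, from 257 and 252 CPM to 167 and 217 CPM. KRT19 overlapped, at 1169 and 1934 CPM untreated and 1110 and 1519 CPM treated.

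None of the 9 was called in SCC1 when the 6 groups were fitted without pairing (3 at an unadjusted p under 0.05 in edgeR), and 0.0168% of all genes tested were. DESeq2 called KRT80 (1.71% of all genes), and so did edgeR with no filter on low counts (0.938%). Samples with the same replicate number deviated together within lines (Pearson's r of 0.54 to 0.69 across genes, on log2(CPM + 1)) and also between lines (0.30 to 0.67). On edgeR's log2 CPM the values within lines were 0.35 to 0.60. What the number marks is not given, and these correlations do not tell pairing within a line from an effect shared by the lines. With a block for each replicate number of a line 3 were called, all higher, against 4.45% of all genes in either direction and 2.46% higher. KRT80 rose by 1.17 ± 0.24 on the log2 scale (edgeR adjusted p = 0.0326 with the block, 0.238 without). KRT8 rose by 0.84 ± 0.16 (edgeR adjusted p = 0.0291 with the block, 0.575 without) and KRT7 by 0.60 ± 0.12 (edgeR adjusted p = 0.0322 with the block, 0.498 without). The change of KRT18 was 0.57 ± 0.15 (edgeR adjusted p = 0.0650 with the block), of KRT13 0.89 ± 0.30 (0.146) and of KRT10 -0.42 ± 0.15 (0.178), and these were not called in either fit. A block shared by the 3 lines called 0 of 9 in SCC1 and in SCC25 (5 and 4 at an unadjusted p under 0.05) and 1, KRT7, in SCC6.

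In SCC6, KRT7 and KRT19 were lower after cetuximab. KRT7 went from 452 and 326 CPM to 225 and 218 CPM, and KRT19 from 3010 and 2377 CPM to 1446 and 1545 CPM, both without overlap. KRT8 was at 3925 and 3517 CPM untreated and at 3282 and 4106 CPM treated, a treated sample on either side of the untreated ones. KRT18 was at 4337 and 3786 CPM untreated and at 2868 and 3510 CPM treated. KRT10 changed from 397 and 348 CPM to 347 and 298 CPM, KRT13 from 22.7 and 14.7 CPM to 17.3 and 13.8 CPM, and KRT80 from 176 and 118 CPM to 185 and 198 CPM. Of these 3, KRT80 was higher and KRT10 lower in both treated samples, without overlap, and KRT13 overlapped.

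Without the block 0 of 9 were called in SCC6 (1 at an unadjusted p under 0.05 in edgeR), against 3.81% of all genes. DESeq2 called KRT7 (9.65% of all genes), and so did edgeR with no filter on low counts (4.76%). With the block 2 were called, both lower, against 20.1% of all genes in either direction and 10.1% lower, so 2 of 9 is near the background. KRT7 fell by 0.80 ± 0.12 on the log2 scale (edgeR adjusted p = 0.00475 with the block, 0.0915 without). KRT19 fell by 0.84 ± 0.13 (edgeR adjusted p = 0.00526 with the block, 0.441 without). The change of KRT8 was -0.02 ± 0.16 (edgeR adjusted p = 0.968 with the block), of KRT18 -0.35 ± 0.15 (0.120) and of KRT80 0.41 ± 0.23 (0.237).

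In SCC25, KRT7 and KRT80 were higher after cetuximab and KRT13 and KRT4 lower within each replicate pair, but the replicates themselves lay far apart. KRT7 went from 964 and 1383 CPM to 1824 and 2367 CPM, and KRT80 from 37.8 and 20.9 CPM to 66.4 and 66.5 CPM, both without overlap. KRT13 was at 105 CPM untreated and 12.7 CPM treated in replicate 1, and at 662 and 242 CPM in replicate 2. Thus treated replicate 2 was above untreated replicate 1, and the groups overlapped. KRT4 was at 1.32 and 0.03 CPM in replicate 1, from 106 and 3 UMIs, and at 29.98 and 4.55 CPM in replicate 2, from 3085 and 461 UMIs. Scaled by library totals, the untreated level was 38.0 times the treated level in replicate 1 (exact binomial 95% interval 12.7 to 187). In replicate 2 it was 6.59 times (5.97 to 7.28), in both cases with counting error only. KRT19 had the same layout as KRT13, with 642 and 432 CPM in replicate 1 and 2111 and 1270.3 CPM in replicate 2.

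Replicate 2 exceeded replicate 1 in SCC25 under both treatments for KRT13 (6.31-fold in PBS and 19.1-fold in cetuximab), KRT19 (3.29-fold and 2.94-fold) and KRT8 (1.71-fold and 2.34-fold). The median UMI count per cell was also higher in replicate 2, 40883.5 against 31947.5 in PBS and 47606 against 41348 in cetuximab, and so was the median mitochondrial share of UMIs, 4.37% against 3.35% and 4.32% against 2.84%. Their part in the difference between replicates was not tested. KRT8 was at 842 and 1443 CPM untreated and 1012 and 2366 CPM treated, KRT18 at 1359 and 1725 CPM untreated and 1493 and 2440 CPM treated, and both overlapped between treatments. KRT10 went from 306 and 258 CPM to 191 and 228 CPM without overlap.

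None of the 9 was called in SCC25 without the block (2 at an unadjusted p under 0.05 in edgeR), and 0% of all genes were. DESeq2 called KRT80 (0.625% of all genes), and so did edgeR with no filter on low counts (0.494%). With the block 3 were called against 0.978% of all genes, 1 of them higher (0.771% of all genes) and 2 lower (0.207%). KRT7 rose by 0.85 ± 0.12 on the log2 scale (edgeR adjusted p = 0.0256 with the block, 0.589 without). KRT13 fell by 2.24 ± 0.32 (edgeR adjusted p = 0.0261 with the block, 0.965 without) and KRT4 fell by 3.19 ± 0.46 (edgeR adjusted p = 0.0261 with the block, 0.916 without). The change of KRT80 was 1.24 ± 0.24 (edgeR adjusted p = 0.0584 with the block), of KRT19 -0.65 ± 0.13 (0.0708), of KRT8 0.49 ± 0.16 (0.211) and of KRT10 -0.43 ± 0.15 (0.251). In the fit without the block, leaving out SCC25 PBS replicate 2 turned the log2 change of KRT13 from -1.59 to 0.28 and that of KRT4 from -2.76 to 0.80.

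**Figure D3:**
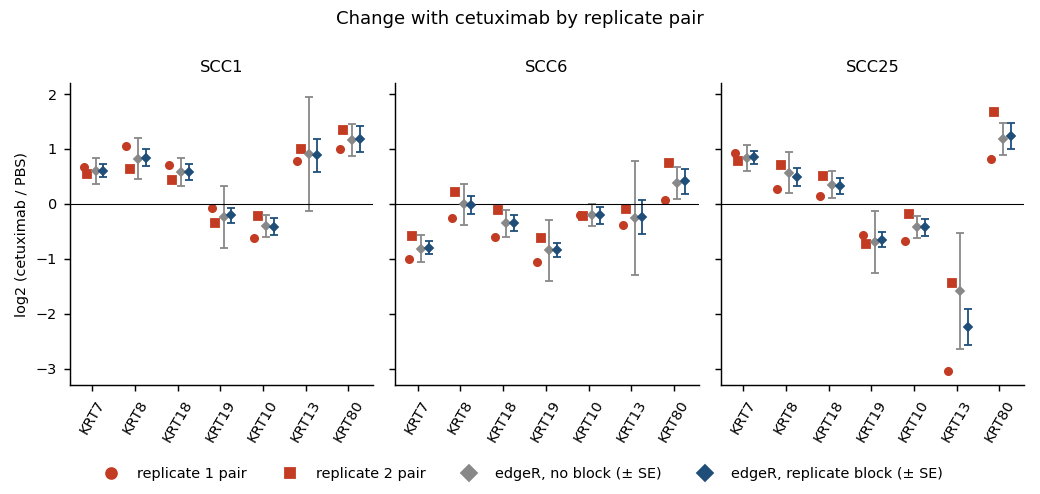
Change of 7 keratins with cetuximab (y axis, log2 of treated over untreated) in each line. Red circles and squares are the replicate 1 and replicate 2 pairs, and diamonds are the edgeR estimates with their SE, grey without and blue with the replicate block. KRT80, KRT10 and KRT19 keep their sign in all 6 pairs. KRT7 is above 0 in SCC1 and SCC25 and below 0 in SCC6, and the bars of KRT13 shrink most with the block.

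Across the 3 lines, KRT80 was higher and KRT10 and KRT19 lower with cetuximab in all 6 replicate pairs. Treated and untreated samples of KRT80 and KRT10 did not overlap in any line. Those of KRT19 overlapped in SCC1 and SCC25, where its direction depends on the pairing by number. The share of all genes with the same sign in all 6 pairs was not computed. KRT80 was the single member called without the block, higher by 0.91 ± 0.19 on the log2 scale (edgeR adjusted p = 0.0243), against 3.67% of all genes in either direction and 2.53% higher. Leaving out SCC1 PBS replicate 1, SCC1 PBS replicate 2, SCC1 cetuximab replicate 1 or SCC6 PBS replicate 2 ended that call (edgeR adjusted p = 0.0546, 0.0716, 0.0604 and 0.0611). With the block 3 were called against 11.6% of all genes, 1 higher (6.03% of all genes) and 2 lower (5.55%). KRT80 rose by 0.94 ± 0.18 (edgeR adjusted p = 0.0183), KRT19 fell by 0.57 ± 0.12 (edgeR adjusted p = 0.0222 with the block, 0.291 without, 0.134 with a block shared by the lines) and KRT10 fell by 0.35 ± 0.09 (edgeR adjusted p = 0.0441 with the block, 0.0930 without). DESeq2 called KRT80 and KRT10 (10.1% of all genes), and edgeR with no filter on low counts called KRT80 (4.03%). The pair changes of KRT10 ran from -0.68 to -0.18, of KRT19 from -1.06 to -0.07 and of KRT80 from 0.07 to 1.67. KRT7 showed no shared direction, with 4 pairs higher and 2 lower. KRT8 was higher in 5 of 6 pairs and KRT18 in 4 of 6, and neither was called in any fit across lines.

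The effect of cetuximab on KRT7 and KRT13 differed between the lines when replicates were paired. In the test of the line by treatment interaction, 2 of 9 were called with the block, against 1.29% of all genes, namely KRT7 (edgeR adjusted p = 0.0191) and KRT13 (edgeR adjusted p = 0.0341). KRT7 changed by 0.67 and 0.54 in the pairs of SCC1 and by 0.92 and 0.78 in those of SCC25, but by -1.01 and -0.58 in those of SCC6, on the log2 scale. KRT13 changed by 0.78 and 1.00 in SCC1, by -0.39 and -0.09 in SCC6 and by -3.05 and -1.45 in SCC25. Without the block 0 of 9 were called (1 at an unadjusted p under 0.05 in edgeR), against 0% of all genes, with edgeR adjusted p-values of 0.348 for KRT7 and 0.957 for KRT13. DESeq2 (1.78% of all genes) and edgeR with no filter on low counts (0.958%) called KRT7 alone among the members, and the block shared by the 3 lines called 0 (2 at an unadjusted p under 0.05).

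The balance of the simple keratins moved towards type II with cetuximab in every pair. The ratio of KRT18 and KRT19 UMIs to KRT7 and KRT8 UMIs was 0.803 and 0.784 in untreated SCC1 and 0.642 and 0.572 after cetuximab. In SCC6 it was 1.68 and 1.60 untreated and 1.23 and 1.17 treated. In SCC25 it was 1.11 and 1.36 untreated and 0.679 and 0.784 treated. Treated and untreated samples did not overlap in any line. The ratio of KRT8 to KRT18 UMIs was higher with cetuximab in all 6 pairs of the same replicate number. It was 0.612 and 0.837 untreated and 0.775 and 0.959 treated in SCC1, 0.905 and 0.929 against 1.14 and 1.17 in SCC6, and 0.620 and 0.837 against 0.678 and 0.970 in SCC25. Treated and untreated samples overlapped in SCC1 and SCC25, where the direction depends on the pairing by number, and not in SCC6. These are ratios of captured mRNA molecules, given without a test, and not of proteins.

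**Figure D4:**
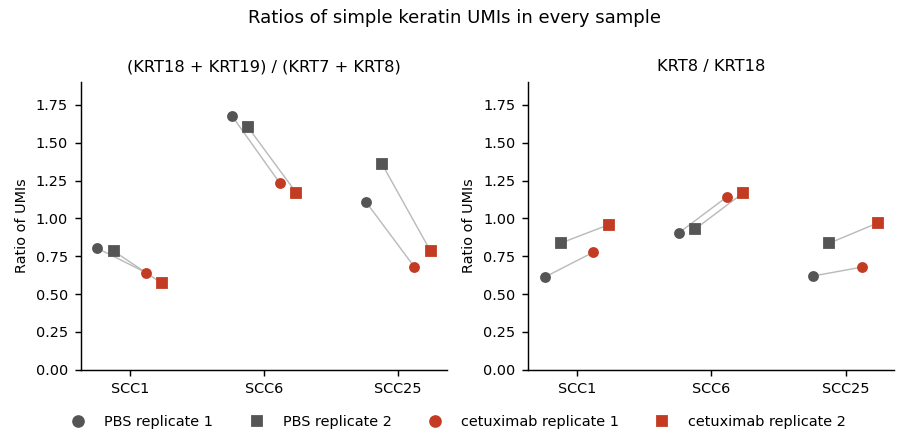
Ratio of UMIs (y axis) of the type I keratins KRT18 and KRT19 to the type II keratins KRT7 and KRT8 (left) and of KRT8 to KRT18 (right) in the 12 samples by line (x axis), with grey lines joining untreated (grey points) and treated (red points) samples of the same replicate number. The left ratio falls and the right ratio rises in all 6 pairs.

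Single cells showed which keratins were carried by nearly every cell. After thinning to 15000 UMIs per cell, which left 23063 cells, KRT8 and KRT18 had a UMI in 98.2% to 100% of cells of each sample. KRT7 was found in 99.5% to 100% of cells of SCC1 and SCC25 and in 86.9% to 89.8% of SCC6 cells, where its median was 2 to 4 UMIs per cell against 41 to 73 in SCC1. KRT19 was found in 98.7% to 100% of cells of SCC1 and SCC6 and in 87.3% to 99.3% of SCC25 cells. KRT10, at a median of 2 to 5 UMIs per cell, was found in 87.7% to 99.0%. Genes of blood and liver (PTPRC, CD3E, HBB and ALB) had a UMI in at most 0.137% of cells of a sample. They do not measure free keratin RNA, so how many of the cells with 1 UMI of KRT13, KRT80 or KRT4 received it from the medium was not tested. Doublets were not called, and the cells were used as deposited, so shares and correlations between cells may include them.

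KRT13 and KRT80 had a UMI in only part of the cells at this depth. Whether cells with and without a UMI differ in kind was not tested, and at low levels many cells that express a gene give no UMI. KRT13 had a UMI in 64.6% and 71.5% of untreated and 72.1% and 87.2% of treated SCC1 cells. In SCC25 the shares were 42.5% and 84.7% untreated and 10.3% and 62.6% treated, lower with cetuximab in both pairs. In SCC6 they were 13.0% and 8.58% untreated and 12.4% and 7.14% treated. Without thinning, the range was 83.7% to 98.4% in SCC1, 18.1% to 94.99% in SCC25 and 12.9% to 20.1% in SCC6. Where KRT13 was present it was uneven, with a coefficient of variation of 1.56 to 2.10 between SCC1 cells against 0.50 to 0.59 for KRT7, and the top 1% of SCC1 cells held 10.4% to 14.2% of its UMIs.

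KRT80 had a UMI in 18.3% and 14.9% of untreated and 31.6% and 32.7% of treated SCC1 cells, and in 35.4% and 18.4% of untreated and 51.0% and 46.2% of treated SCC25 cells. In SCC6 the shares were 82.2% and 70.6% untreated and 87.3% and 90.8% treated. Without thinning, the range was 37.5% to 61.7% in SCC1, 37.2% to 75.2% in SCC25 and 91.8% to 98.7% in SCC6, where treated replicate 1 (93.1%) was then below untreated replicate 1 (94.4%). After thinning, treated samples lay above untreated samples in each line. The median KRT80 count among the thinned cells was 0 UMIs in SCC1 and 1 to 3 UMIs in SCC6.

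KRT4 had a UMI in 12.1% of untreated SCC25 cells of replicate 2 (exact Clopper-Pearson 95% interval 10.8% to 13.4%) and in 3.76% of treated cells of replicate 2 (2.97% to 4.69%). In the other samples the share was 1.41% or less. In SCC6, 0 of 2436 and 0 of 2592 thinned cells of untreated replicate 2 and treated replicate 1 had a KRT4 UMI, against 2 UMIs and 1 UMI in these samples before thinning. With 3 counts as the floor, this allows a share of cells with a UMI at this depth of up to 0.123% and 0.116%, and does not limit the share of cells that express the gene. KRT1 was found in at most 8 cells of a sample, 0.320% of SCC25 PBS replicate 2, and in 0 of 1920 cells of treated SCC25 replicate 1, which by the same floor allows up to 0.156% of cells with a UMI.

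**Figure D5:**
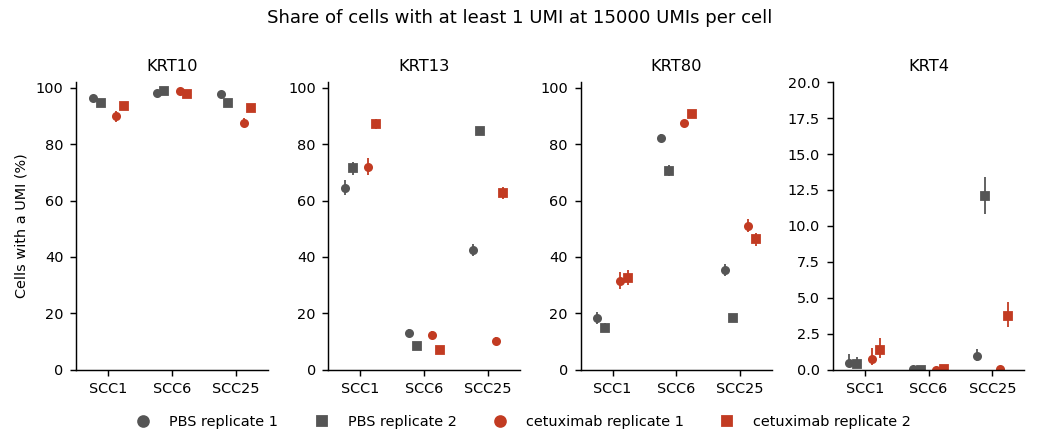
Share of cells with at least 1 UMI (y axis, percent, a separate scale for KRT4) for 4 suprabasal keratins in the 12 samples by line (x axis), after thinning to 15000 UMIs per cell, with exact 95% intervals. KRT10 is found in 87.7% or more of cells everywhere, KRT13 is low in SCC6 and spread in SCC25, KRT80 is higher in treated samples of each line, and KRT4 stands out in SCC25 PBS replicate 2 at 12.1%.

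Pairs of keratins, of opposite or of the same type, went together from cell to cell to different degrees. KRT8 and KRT18 had a Spearman correlation of 0.64 to 0.81 among the thinned cells of each of the 12 samples, the highest of the 14 keratin pairs examined in every sample but 1, SCC25 PBS replicate 1, where KRT5 and KRT14 were ahead. KRT8 and KRT19, of opposite type, had 0.28 to 0.43 in SCC1 and 0.34 to 0.55 in SCC6. KRT7 and KRT19, also of opposite type, had 0.15 to 0.47 in SCC1 and -0.09 to -0.01 in SCC6. KRT7 and KRT8, both type II, had 0.27 to 0.66 in SCC1 and SCC25 and 0.05 to 0.34 in SCC6. KRT13 and KRT19, both type I, had 0.42 to 0.56 in SCC1, 0.17 to 0.45 in SCC25 and 0.21 to 0.23 in SCC6. KRT13 and KRT14 had -0.02 to 0.33. KRT4 and KRT13 had 0.35 in SCC25 PBS replicate 2, where KRT4 was highest. Where few cells had a KRT4 UMI the value was lower, at 0.08 to 0.14 in SCC1, 0.10 in SCC25 PBS replicate 1, -0.01 in SCC25 cetuximab replicate 1 and 0.06 in SCC6 PBS replicate 1. KRT1 and KRT10 had -0.03 to 0.06 in the SCC1 samples with a value, with KRT1 in few cells. KRT18 and the basal KRT14 went in opposite directions in SCC25 replicate 2, at -0.46 untreated and -0.39 treated, but not in SCC25 replicate 1, at 0.11 and 0.13. The cells of a sample share a library, and these correlations are descriptions. Low counts per cell weaken such correlations, and KRT7 had fewer UMIs per cell in SCC6. The part of count level in the differences between lines and pairs was not tested.

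Over the 12 samples, after the mean of each line was removed, KRT8 and KRT18 correlated at Pearson's r = 0.88, KRT19 and KRT13 at 0.83 and KRT7 and KRT18 at 0.81, while KRT10 and KRT80 had -0.65. Among 7558 genes with a mean of 10 CPM or more, the genes most like KRT7 by this measure were ZNF444 (0.93), JUN (0.93) and ARAF (0.91), and those most like KRT8 were VGLL1, SUPT20H and WNT10A (0.94 to 0.95). GPRC5A, LRCH4 and HIBADH (0.91 to 0.93) were closest to KRT18, and DALRD3, CCDC28A and EIF3E (0.98 each) to KRT19. For KRT10 they were STX10, PITPNA-AS1 and LRTOMT (0.94 to 0.97), for KRT13 ANKH, SELENOP and CCDC152 (0.93 to 0.94) and for KRT80 DUSP3, RAB32 and CLN8 (0.92 to 0.95). With 12 samples that share replicate numbers and 7558 genes to choose from, these are the tops of long rankings.

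Few genes of the other lists were called with cetuximab across lines, and their shares were near or below the background of 11.6% with the block. In SCC6 with the block the share called in each list was above the 20.1% of all genes, without a test. Among the other keratins listed, 2 of 19 were called across lines with or without the block, against 11.6% and 3.67% of all genes. Both were higher, namely KRT17 (1.26 ± 0.17 with the block), a keratin of activated keratinocytes, and KRT75 (2.10 ± 0.32), a keratin of the hair follicle. In SCC6 with the block 9 of 19 were called, 5 higher and 4 lower, against 20.1% of all genes. KRT9 (1.79 ± 0.50), KRT17 (1.70 ± 0.24), KRT14 (1.60 ± 0.16) and KRT5 (1.60 ± 0.17) were higher, KRT14 and KRT5 from levels of at most 1.62 CPM. KRT6B (-4.39 ± 0.78), KRT23 (-2.73 ± 0.60) and KRT6A (-2.59 ± 0.24) were lower. In SCC25 with the block KRT15, a basal keratin, was lower (-2.16 ± 0.28). Of the 14 anchoring and organising genes, 1 was called across lines with the block, TCHP (-0.49 ± 0.08), a keratin-binding protein. In SCC6 with the block 3 were higher and 2 lower, with EPPK1 (0.98 ± 0.24) and the desmosomal DSP (0.77 ± 0.12) higher and PKP3 (-0.68 ± 0.15) lower. Of 19 genes of suprabasal squamous differentiation, 1 was higher in SCC1 with the block, and 3 were higher and 2 lower in SCC6. The 2 lower in SCC6 were SBSN (-3.16 ± 0.95) and GRHL1 (-1.10 ± 0.24). TGM1, the transglutaminase of the cornified envelope, was higher in SCC1 (1.49 ± 0.25) and SCC6 (2.05 ± 0.28). Of 14 genes of simple and glandular epithelium, 2 were called across lines with the block, both lower, the epithelial factors ELF3 (-1.21 ± 0.29) and EHF (-0.74 ± 0.20). In SCC6, where KRT7 and KRT19 fell, 5 of the 14 were lower and 1 higher with the block, with CLDN3 at -1.50 ± 0.28 and CD24 at 0.91 ± 0.11. The shares called over all genes were those given above for each fit.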

How the data were processed

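UMI counts per cell and gene were deposited by the authors as count matrices for SCC1, SCC6 and SCC25, and the authors' cell table gave each cell's sample. The submitters' processing notes name Cell Ranger and GRCh38, with versions and counting settings not given in the sources used here. Per the labels, libraries were made with the 10x Genomics 3′ kit, and 33538 rows were summed to 33514 symbols. Counts were summed per sample, since cells are not replicates. Group differences were tested with edgeR 4.0.16 in R 4.3.3 (quasi-likelihood F-test, TMM, filterByExpr, 6 groups, Benjamini-Hochberg adjustment over 17897 genes, threshold 0.05), and the shared effect with line and treatment as terms. DESeq2 1.42.0, other normalization, no filter on low counts, other cell sets, leaving out each sample and replicate blocks were alternatives. The labels give replicate numbers. Deviations of same-numbered samples correlated across genes within each line, at 0.38 (SCC1), 0.35 (SCC6) and 0.60 (SCC25) on edgeR's log2 CPM. The same measure on log2(CPM + 1), which differs in the offset added before the logarithm, gave 0.54 to 0.69 within lines and 0.30 to 0.67 between lines. Its size thus depends on the log scale. The data thus do not show that the pairing is specific to a line, and it rests on a shared number. A block of line by replicate number was fitted, which leaves few degrees of freedom for the spread between samples. A block shared by the lines was fitted beside it. For shares of cells with a UMI, cells were thinned to 15000 UMIs and 851 shallower cells left out, 0.847% to 9.18% per sample. Intervals cover counting error only. Genes most alike were the 3 with the highest Pearson's r on log2(CPM + 1). The edgeR script was tested on simulated data for SCC6 cetuximab against PBS in the fit without a block, with independent samples and a fixed dispersion. That run did not check the fits with a replicate block. Members and lists were chosen with earlier results of these data known. List genes were named among those past the threshold, at most 4 in each direction.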

Additional observations from a re-analysis of the deposited data

Results flagged for a closer look

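KRT7 and KRT13 were picked out because the effect of cetuximab differed between the lines in the test of the line by treatment interaction with the replicate block, with edgeR adjusted p-values of 0.0191 and 0.0341. KRT7 was higher in 2 of 2 pairs of SCC1 and of SCC25 and lower in 2 of 2 pairs of SCC6. KRT13 was higher in 2 of 2 pairs of SCC1 and lower in 2 of 2 pairs of SCC25. With a block shared by the lines, neither KRT7 nor KRT13 passed (edgeR adjusted p = 0.0906 and 0.546). Without a block, KRT13 passed in none of the fits run. KRT7 did not pass in the 6-group edgeR fit (adjusted p = 0.348) but did in edgeR with no filter on low counts (adjusted p = 0.00870) and in DESeq2 (adjusted p = 0.00296). Groups of 2 samples were too small for a search for single samples that stand apart.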

How the results depend on the processing

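Without the replicate block, 0 members were called in SCC1, SCC6, SCC25 and the interaction, and 1 across lines. The replicate block of line by replicate number raised these to 3, 2, 3, 2 and 3, and the block shared by the lines to 1 in SCC6 (KRT7) and 2 across lines (KRT80 and KRT10). DESeq2 called 1 in each line, 1 for the interaction and 2 across lines, and the fit with no low-count filter called 1 in each line and 1 for the interaction. Leaving out samples gave 2 to 6 calls for SCC6 PBS against SCC1 PBS, 1 to 3 for SCC25 PBS against SCC1 PBS and 0 to 1 across lines. The lowest count came without SCC6 PBS replicate 1 for the first and without SCC1 PBS replicate 2 for the second. The log2 changes of KRT7, KRT10 and KRT80 kept their direction in every comparison and alternative run, though calls of KRT10 and KRT80 were lost in some. KRT10 lost its call between SCC6 and SCC1 with no filter on low counts and without high-UMI or high-mitochondrial cells (edgeR adjusted p = 0.0787, 0.0590 and 0.0511). Log2 changes that changed sign were those of KRT8 in SCC6 (0.0078 with the 4 SCC6 samples alone, -0.19 to 0.14 over left-out samples) and of KRT1 in SCC25 PBS against SCC1 PBS (-0.28 without the 5% of cells with most UMIs, -1.75 to 2.96 over left-out samples). Over left-out samples the others ran, for KRT1, from -1.37 to 3.46 in SCC1, -2.29 to 2.34 in SCC6 and -1.96 to 0.26 across lines, for KRT13 from -2.08 to 0.59 in SCC25 PBS against SCC1 PBS, -4.92 to 0.28 in SCC25, -0.55 to 0.072 in SCC6 and -0.57 to 0.31 across lines, for KRT19 from -0.57 to 0.17 in SCC1, -1.28 to 0.44 in SCC25 PBS against SCC1 PBS and -1.67 to 0.41 in SCC25, for KRT4 from -0.023 to 1.34 in SCC1, -8.76 to 0.80 in SCC25 and -1.81 to 0.60 across lines, and in SCC25 from -0.048 to 0.68 for KRT18 and -0.18 to 1.07 for KRT8. The causes were not tested. The shares of cells with a UMI depend on depth, and 109 of 162 group means moved by more than the spread between replicates when the depth or the minimum was changed. With 2 samples per group, levels of a few UMIs (KRT1 in all lines, KRT4 in SCC6) give no usable fold.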
